A study of Homo sapiens with 4 samples.

Results

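Mitosis, kinetochore and spindle genes were examined as a set of 60 genes out of the 58735 genes in the deposited table. They were picked by gene name, for their known function in cell division, and all 60 had an entry in the table. RNA was taken from the established cell line OVCAR8, grown from a human ovarian carcinoma, and 2 libraries were made per group. The shFAM49B cells received GIPZ short hairpins against FAM49B, and the shCON cells received a scrambled hairpin. The labels give the same line and culture medium for both groups and name no other difference between them. The treatment protocol describes lipofection of the hairpin plasmids and a harvest after 36 h, whereas the design text of the series calls the knockdown stable, and the sources used here do not settle which applies. Nothing in the labels ties the libraries of a group to separate cultures, so every p-value below measures the spread between these libraries, which may be technical.

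A cell enters mitosis when cyclin-dependent kinase 1, bound to a B-type cyclin, becomes active. The replicated chromosomes are then compacted by condensin, captured at their kinetochores by spindle microtubules, and held until the spindle checkpoint is satisfied, after which the anaphase-promoting complex destroys securin and cyclin B. Most of these genes are transcribed late in the cell cycle. The DREAM complex holds them down earlier, and B-MYB and FOXM1 activate them later, through the same promoter element, the cell cycle homology region, while NF-Y binds their CCAAT boxes. Their summed transcript is widely read as a sign of proliferation. In a bulk sample, fewer cells in division and less RNA per dividing cell cannot be told apart.

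Libraries held 15639559 to 16875353 reads in genes, recovered from the table. FAM49B itself stood at 1.06 and 1.02 FPKM in shFAM49B, against 7.41 and 7.60 FPKM in shCON (log2 fold change -2.06, SE 0.0807, limma adjusted p = 0.00054). Levels are given in FPKM, which divides reads by gene length and by a depth factor. A gene is called higher or lower where the limma adjusted p, over the 13775 genes whose mean reached 1 FPKM, is under 0.05. Log2 fold changes were taken after adding 1 to each FPKM value, so changes of low genes come out too small, and folds are ratios of mean FPKM. The labelled cell type was checked by markers. KRT8 (37.4 and 38.4 FPKM in shFAM49B, against 41.7 and 39.2 in shCON) and KRT18 were present, but PAX8 reached no more than 0.112 FPKM in any library, and KRT7 and MUC16 no more than 0.0724 and 0.00305 FPKM. The 5 markers of stratified epithelium (KRT5, KRT14, KRT6A, KRT17 and TP63) all fell, and their summed level was 28.3 to 30.8 FPKM in shFAM49B and 433 to 491 FPKM in shCON. Of 9 markers of simple epithelium and ovarian carcinoma 5 were tested and 3 fell (EPCAM, CDH1 and KRT18), with sums of 63.1 to 63.3 FPKM in shFAM49B and 75.4 to 78.1 FPKM in shCON. Of 4 mesenchyme markers VIM and CDH2 rose, and the sums were 144 to 149 FPKM in shFAM49B and 98.5 to 103 FPKM in shCON. The 4 fibroblast markers summed to 6.01 to 6.63 FPKM in shFAM49B and 5.50 to 6.11 FPKM in shCON, and the 4 blood cell markers to 1.12 to 1.38 FPKM in shFAM49B and 1.36 to 1.70 FPKM in shCON, and none of the 2 tested of these passed. Markers of endothelium summed to at most 0.218 FPKM in any library, and PTPRC, the pan-leukocyte marker, reached at most 0.00711 FPKM. Every mitotic gene below was measured in these same libraries, and the part of these marker differences in the mitotic values was not tested. Single markers lay far apart, KRT6A 26.3-fold, KRT5 15.4-fold, EPCAM 12.4-fold and CDH1 10.2-fold lower in shFAM49B. Whether the libraries of both groups come from the same line, as labelled, was not tested, and that limit applies to every comparison below.

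As deposited, more mitotic genes were higher than lower in shFAM49B. Of the 60, 59 passed the filter, and PRC1 did not. Of those 59, 30 were called higher, where 26.4% of all tested genes were, and 4 were called lower (CENPE, CENPF, KIF11 and KIF20B), where 15.8% of all tested genes were, while 25 did not pass (42.2% of all tested genes were called in either direction). The changes were small: the largest log2 fold change was that of CDC20 (0.73, 1.66-fold higher), the largest fall that of KIF20B (-0.41, 1.36-fold lower), and the median log2 fold change of the 59 was 0.22, beside 0.055 over all tested genes. Both shFAM49B libraries lay above both shCON libraries for 35 of the 59 (43.1% of all tested genes) and below them for 11 (31.6% of all tested genes). With each library left out in turn, the median log2 fold change of the members was 0.20 to 0.24, beside 0.053 to 0.059 over all tested genes. In each of these fits fewer members, and fewer of all tested genes, were called higher than in the main test.

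How many members rose depended on how the libraries were scaled. The deposited FPKM had been scaled between libraries by median ratios. The summed level of the 60 genes was 2085 and 2090 FPKM in shFAM49B, against 1709 and 1688 FPKM in shCON. As a share of all recovered reads, however, they took 0.810% and 0.777% in shFAM49B, against 0.80% and 0.790% in shCON, and on that measure the groups overlapped. Rescaled to TPM, 12 members were higher and 12 lower (20.3% each, beside 11.6% and 31.7% of all tested genes), and the median was -0.021. Relative to recovered reads the counts were 13 and 12 (22.0% and 20.3%, beside 12.5% and 30.3%), with a median of -0.0020. After median ratios over the tested genes alone they were 25 and 6 (42.4% and 10.2%, beside 21.2% and 19.2%), with a median of 0.15. After quantile normalization they were 17 and 6 (28.8% and 10.2%, beside 19.2% and 17.8%), with a median of 0.044. The log2 fold changes of all tested genes shifted by a median of -0.24 as TPM and -0.19 relative to recovered reads. Set against the median of all tested genes under the same scaling, the members' median was higher by 0.17 as deposited, 0.15 as TPM, 0.13 relative to recovered reads, 0.15 after median ratios and 0.024 after quantile normalization.

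**Figure D1:**
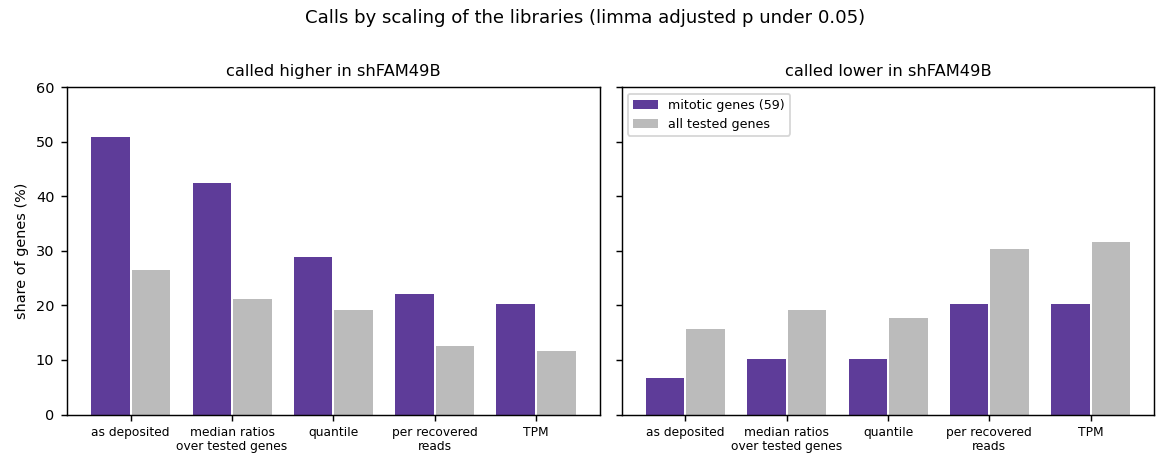
Share of genes called higher (left) and lower (right) in shFAM49B, in percent, for the 59 tested mitotic genes (purple) and for all 13775 tested genes (grey), under 5 scalings of the libraries. The share of mitotic genes called higher is 50.8% as deposited and 20.3% as TPM, and it lies above that of all tested genes under each of the 5 scalings.

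In the main test and in each of the 16 other settings 12 members were called higher: AURKA, AURKB, BUB1, CDC20, INCENP, KIF20A, KIF22, KIF2C, KIFC1, NCAPH, PLK1 and TPX2. They are the same 12 that were called higher as TPM (20.3%, beside 11.6% of all tested genes). How many of all tested genes were called higher in every setting was not counted. The other 18 rises lost their call in at least 1 setting. A fit that leaves a library out has fewer residual degrees of freedom, so a call can be lost with little change in size. In these fits the log2 fold change of CCNB1 was 0.20 to 0.24, beside 0.22 in the main test. That of CDK1 ranged from 0.20 to 0.39, beside 0.29. The 4 falls stayed lower under each of the 4 other scalings, but each lost its call without at least 2 of the 4 libraries, left out 1 at a time.

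Promoters of these genes are shown because the known regulators of these genes act there. RefSeq promoter windows (GRCh38.p14, from 250 bases before to 50 after the start, on the strand of the gene) were listed for 51 of the 60. Printed are the 2 clearest rises, CDC20 and KIF20A, the cyclin gene CCNB1, and the 2 clearest falls, KIF11 and CENPE. Capitals mark TTTGAA, the core of the cell cycle homology region, and CCAAT, the box of NF-Y, on either strand (TTCAAA and ATTGG when read from the other strand). The windows are chr1:43358731-43359030 and chr5:138178862-138179161, both plus strand, then chr5:69166900-69167199 and chr10:92592880-92593179, also plus, and chr4:103198294-103198593, minus.
CDC20: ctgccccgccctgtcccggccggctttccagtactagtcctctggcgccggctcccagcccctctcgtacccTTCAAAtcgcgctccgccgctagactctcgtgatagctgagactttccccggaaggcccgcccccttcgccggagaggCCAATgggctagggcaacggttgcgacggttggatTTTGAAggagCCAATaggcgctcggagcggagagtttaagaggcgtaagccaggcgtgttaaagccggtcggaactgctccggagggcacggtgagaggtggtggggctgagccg
KIF20A: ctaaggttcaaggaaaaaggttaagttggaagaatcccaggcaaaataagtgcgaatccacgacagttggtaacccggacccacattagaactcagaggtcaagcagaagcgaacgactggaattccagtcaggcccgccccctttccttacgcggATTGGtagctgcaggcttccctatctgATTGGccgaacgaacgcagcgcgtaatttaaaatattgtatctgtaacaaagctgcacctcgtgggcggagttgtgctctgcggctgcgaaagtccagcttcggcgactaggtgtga
CCNB1: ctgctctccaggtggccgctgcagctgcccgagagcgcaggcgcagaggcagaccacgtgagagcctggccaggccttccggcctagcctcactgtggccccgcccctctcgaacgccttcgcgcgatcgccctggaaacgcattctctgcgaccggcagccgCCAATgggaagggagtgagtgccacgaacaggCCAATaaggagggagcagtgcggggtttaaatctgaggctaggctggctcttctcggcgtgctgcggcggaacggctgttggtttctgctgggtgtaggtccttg
KIF11: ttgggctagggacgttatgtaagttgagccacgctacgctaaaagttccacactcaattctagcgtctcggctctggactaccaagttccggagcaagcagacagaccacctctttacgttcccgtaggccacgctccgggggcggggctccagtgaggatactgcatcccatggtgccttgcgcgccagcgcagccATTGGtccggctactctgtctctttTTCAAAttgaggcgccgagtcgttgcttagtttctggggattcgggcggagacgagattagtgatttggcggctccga
CENPE: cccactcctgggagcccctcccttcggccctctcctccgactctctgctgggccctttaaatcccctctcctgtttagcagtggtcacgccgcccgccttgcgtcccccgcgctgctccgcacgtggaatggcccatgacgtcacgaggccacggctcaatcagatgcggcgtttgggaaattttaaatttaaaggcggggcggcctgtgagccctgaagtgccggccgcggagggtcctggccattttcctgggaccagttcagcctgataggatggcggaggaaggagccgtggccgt

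In CDC20 the TTTGAA nearest the start began 65 bases before it, between CCAAT boxes that began 100 and 55 bases before it. KIF20A and CCNB1 each had 2 CCAAT boxes and no TTTGAA in the window. KIF11, which fell, held both motifs, CCAAT at 53 and TTTGAA at 28 bases before the start, and CENPE held neither. TTCGAA was searched too and stood in none of the printed windows. Other forms of the cell cycle homology region were not searched. Of the 51 members, 34 held TTTGAA (66.7%), against 9.01% of the promoters of all tested genes in the RefSeq table, and 37 held CCAAT (72.5%), against 37.1%. Both motifs stood in 26 members (51.0%), against 3.94%. Either TTTGAA or TTCGAA stood in 37 members (72.5%), against 10.5%. TTTGAA stood in 15 of 25 members called higher, in 3 of 4 called lower and in 15 of 21 that did not pass. CCAAT stood in 20 of 25, 3 of 4 and 13 of 21. Promoters with these letters were thus found among rises, falls and genes that did not pass. Where a gene had several listed starts the first was used, and counting any of them gave TTTGAA in 35 members (68.6%) and 12.9% of tested genes. A match describes the letters in the window and is not a measured binding site.

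**Figure D2:**
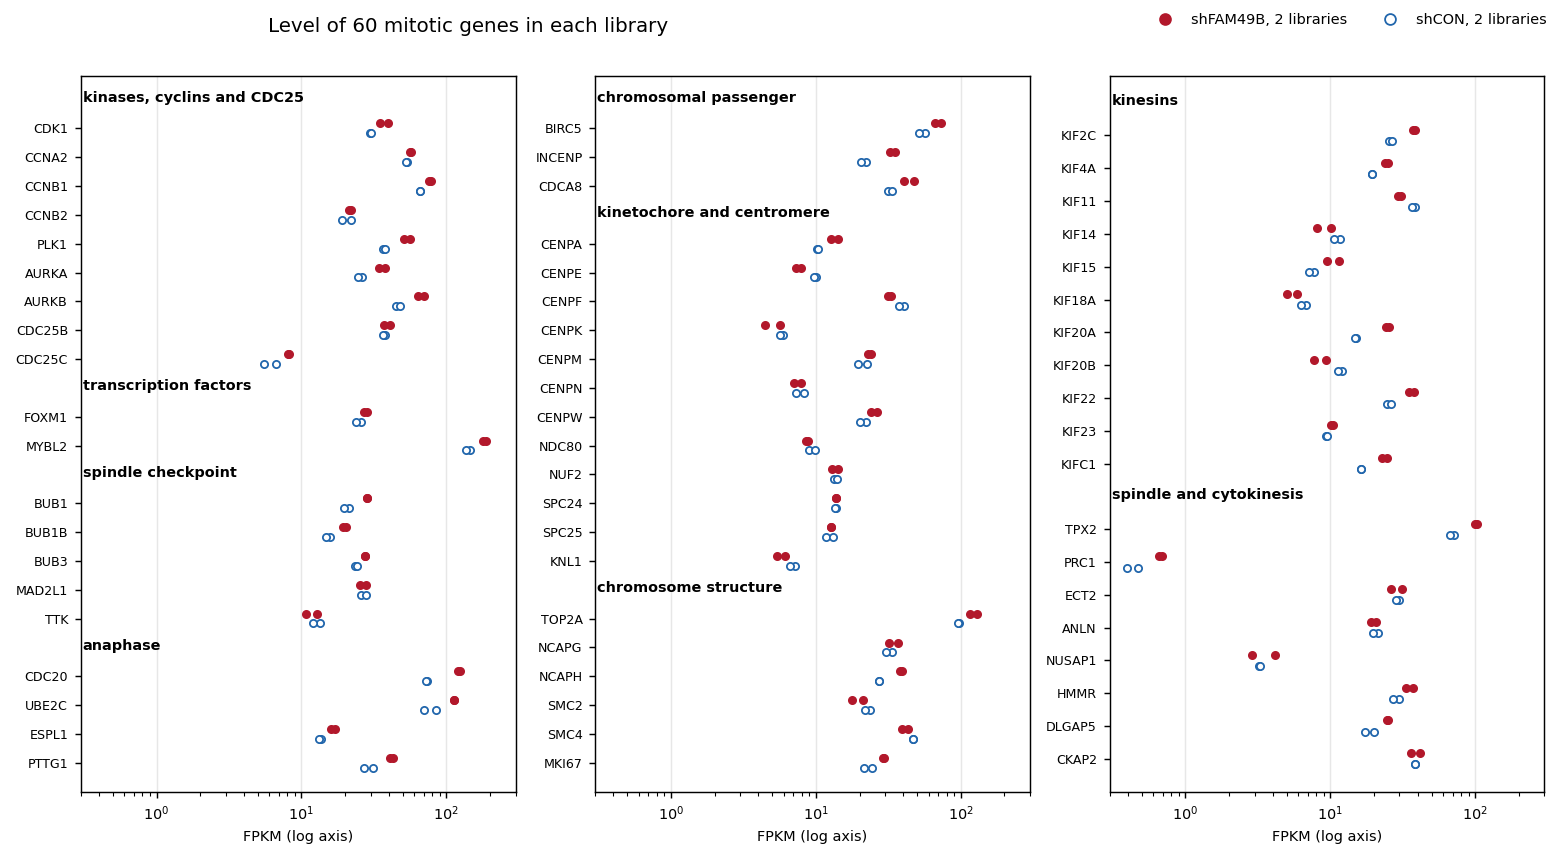
FPKM (log axis) of each of the 60 mitotic genes in the 2 shFAM49B libraries (filled red, upper points of a row) and the 2 shCON libraries (open blue, lower points), by role. MYBL2, CDC20, TOP2A, UBE2C and TPX2 are the most abundant, PRC1 lies below 1 FPKM, and in most rows the points of the groups lie close together.

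By role, each count is given beside its count as TPM, and over all tested genes 26.4% were higher and 15.8% lower as deposited, against 11.6% and 31.7% as TPM. Among mitotic kinases, cyclins and the CDC25 phosphatases, 6 of 9 rose and 3 did not pass (median log2 fold change 0.29, and 0.057 as TPM, where 3 were higher and 0 lower). The clearest were kinases of the spindle. AURKB, the kinase of the chromosomal passenger complex, measured 64.0 and 70.3 FPKM in shFAM49B, against 44.9 and 47.8 FPKM in shCON. Its shFAM49B values lay above both shCON values (1.45-fold, log2 fold change 0.53, SE 0.0704, limma adjusted p = 0.00469). PLK1, the polo-like kinase of centrosome maturation and mitotic entry (ENSG00000166851, chromosome 16, 23677656 to 23690367, plus strand, GRCh38), measured 50.7 and 56.5 FPKM in shFAM49B, against 36.6 and 38.0 FPKM in shCON. It rose 1.44-fold (log2 fold change 0.51, SE 0.0713, limma adjusted p = 0.00521). AURKA, the kinase of spindle poles, measured 34.4 and 37.6 FPKM in shFAM49B, against 26.0 and 24.5 FPKM in shCON, and rose 1.43-fold (log2 fold change 0.49, SE 0.0695, limma adjusted p = 0.0053). All 3 kinases were among the 12 genes called higher in every setting.

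CDK1, the kinase that drives mitotic entry, rose 1.24-fold, with 39.5 and 34.6 FPKM in shFAM49B, against 29.7 and 30.3 FPKM in shCON (0.29, limma adjusted p = 0.032). Its call was lost under each of the 4 other scalings, with a log2 fold change of 0.057 as TPM, and without shFAM49B replicate 1 (limma adjusted p = 0.0983), shCON replicate 1 (0.119) or shCON replicate 2 (0.0966). The log2 fold changes of the cyclin genes CCNB1, CCNA2 and CCNB2 were 0.22, 0.094 and 0.074. CCNB1, which encodes cyclin B1, measured 75.8 and 78.0 FPKM in shFAM49B, against 65.8 and 65.9 FPKM in shCON, 1.17-fold higher (log2 fold change 0.22, SE 0.0521, limma adjusted p = 0.0232), but its sign turned as TPM (-0.021), relative to recovered reads (-0.0020) and after quantile normalization (-0.13). It did not pass without shFAM49B replicate 1 (limma adjusted p = 0.0717), shFAM49B replicate 2 (0.111), shCON replicate 1 (0.0846) or shCON replicate 2 (0.0812). CCNA2, cyclin A2, had 56.3 and 56.7 FPKM in shFAM49B, against 53.2 and 52.5 in shCON, and did not pass (0.094, limma adjusted p = 0.193, 95% interval -0.035 to 0.22), although its groups did not overlap, and after quantile normalization it was called lower (-0.18). CCNB2, cyclin B2, had 21.2 and 22.1 FPKM in shFAM49B, against 19.2 and 22.0 FPKM in shCON, and its groups overlapped (95% interval -0.13 to 0.28). CDC25C, a phosphatase that activates CDK1, rose 1.34-fold with 8.21 and 8.09 FPKM in shFAM49B, against 6.70 and 5.51 FPKM in shCON (0.37, limma adjusted p = 0.0309), but did not pass without shFAM49B replicate 1 (limma adjusted p = 0.112), shFAM49B replicate 2 (0.113) or shCON replicate 2 (0.116). CDC25C also did not pass as TPM (0.17, limma adjusted p = 0.232), relative to recovered reads (0.17, 0.192) or after median ratios (0.31, 0.0518). After quantile normalization it passed (0.34, limma adjusted p = 0.0487). Its exons overlap those of FAM53C on the opposite strand, which had 15.0 and 15.7 FPKM in shFAM49B, against 19.0 and 19.96 in shCON. The related CDC25B had 36.9 and 40.8 FPKM in shFAM49B, against 37.5 and 36.4 in shCON, and did not pass (0.069, 95% interval -0.10 to 0.24). Counting is not stated to use strand, so reads of overlapping genes on opposite strands cannot be told apart. Exons of 23 members overlap those of another gene on either strand, and PLK1, FOXM1, CCNA2, KIF4A, KIF18A, SMC4 and CENPN are among them. For 4 members (BUB1B, CENPA, NUSAP1 and PRC1) an overlap is on the same strand, so their levels are uncertain.

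Of the transcription factors MYBL2 and FOXM1, 1 rose as deposited and 0 were called as TPM. MYBL2 encodes B-MYB, a subunit of the activator form of the DREAM core, and was the most abundant member, at 177 and 186 FPKM in shFAM49B, against 146 and 136 FPKM in shCON. It was 1.29-fold higher (log2 fold change 0.36, SE 0.0649, limma adjusted p = 0.0101), but its sign turned after quantile normalization (-0.12). It did not pass without shFAM49B replicate 2 (limma adjusted p = 0.0722). FOXM1, the forkhead factor of G2 genes, had 26.8 and 28.4 FPKM in shFAM49B, against 25.6 and 23.8 in shCON, and did not pass (log2 fold change 0.16, SE 0.0655, limma adjusted p = 0.111), though the groups did not overlap.

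Of 5 spindle checkpoint genes 3 rose and 2 did not pass, and as TPM 1 was higher and 0 lower. BUB1, a kinase that recruits checkpoint proteins to the kinetochore, measured 28.5 and 28.4 FPKM in shFAM49B, against 21.4 and 19.7 FPKM in shCON. The rise of 1.38-fold (log2 fold change 0.45, SE 0.0634, limma adjusted p = 0.00541) was called in every setting. BUB1B, which encodes BUBR1 of the mitotic checkpoint complex, rose 1.29-fold with 19.3 and 20.2 FPKM in shFAM49B, against 15.8 and 14.8 FPKM in shCON (0.35, limma adjusted p = 0.0109), a call that was lost as TPM and without shFAM49B replicate 2 (limma adjusted p = 0.0608) or shCON replicate 2 (0.058). BUB3, their shared partner, rose 1.16-fold with 27.4 and 27.4 FPKM in shFAM49B, against 23.3 and 24.2 FPKM in shCON (0.20, limma adjusted p = 0.0351), with the sign turned as TPM (-0.036) and relative to recovered reads (-0.016). BUB3 did not pass without shFAM49B replicate 1 (limma adjusted p = 0.105), shFAM49B replicate 2 (0.116), shCON replicate 1 (0.145) or shCON replicate 2 (0.0896). MAD2L1, which encodes MAD2, the inhibitor of CDC20, had 27.7 and 25.3 FPKM in shFAM49B, against 25.7 and 27.8 FPKM in shCON. Its groups overlapped and the 95% interval of its log2 fold change was -0.20 to 0.17. TTK, the MPS1 kinase at the head of the checkpoint, also overlapped, at 12.8 and 10.8 FPKM in shFAM49B, against 13.3 and 12.1 in shCON (95% interval -0.35 to 0.15). Exons of BUB1B overlap those of BUB1B-PAK6 on the same strand, which reached at most 0.0384 FPKM, so the level of BUB1B is uncertain.

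All 4 anaphase genes rose as deposited (median log2 fold change 0.53, and 0.29 as TPM). CDC20, the activator of the anaphase-promoting complex that MAD2 and BUBR1 restrain, had the largest log2 fold change of the 59 members. It measured 119.7 and 124 FPKM in shFAM49B, against 73.8 and 72.8 FPKM in shCON, 1.66-fold higher (log2 fold change 0.73, SE 0.0536, limma adjusted p = 0.00167), with reads of 3740 and 3788 in shFAM49B, against 2537 and 2744 in shCON. Its promoter, shown above, held both motifs. UBE2C, the ubiquitin-conjugating enzyme of the same complex, had 112 and 113 FPKM in shFAM49B, against 69.6 and 85.0 FPKM in shCON, and rose 1.45-fold (0.54, limma adjusted p = 0.0115). It did not pass without shFAM49B replicate 1 (limma adjusted p = 0.0603) or shFAM49B replicate 2 (0.0694). PTTG1, which encodes securin, the inhibitor of separase, measured 41.0 and 43.0 FPKM in shFAM49B, against 26.9 and 31.2 FPKM in shCON, 1.44-fold higher (0.52, limma adjusted p = 0.00786), but did not pass without shFAM49B replicate 2 (limma adjusted p = 0.0539). The near-identical copies PTTG2 and PTTG3P were listed at 0 in all 4 libraries. ESPL1, separase itself, rose 1.24-fold with 16.0 and 17.2 FPKM in shFAM49B, against 13.5 and 13.2 FPKM in shCON (0.29, limma adjusted p = 0.0179), but did not pass without shFAM49B replicate 2 (limma adjusted p = 0.0808), shCON replicate 1 (0.0715) or shCON replicate 2 (0.0859). Of these 4, CDC20 was called higher in every setting, and as TPM the others did not pass, with positive log2 fold changes of 0.063 to 0.30.

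The chromosomal passenger complex places Aurora B at the inner centromere and later at the midzone. Its 3 non-kinase subunits rose as deposited, beside AURKB. INCENP, the scaffold of the complex, measured 32.5 and 35.0 FPKM in shFAM49B, against 22.2 and 20.6 FPKM in shCON, 1.58-fold higher (log2 fold change 0.63, SE 0.0684, limma adjusted p = 0.003), and was called in every setting. CDCA8, which encodes borealin, had 40.7 and 47.5 FPKM in shFAM49B, against 31.4 and 33.4 FPKM in shCON, and rose 1.36-fold (0.43, limma adjusted p = 0.0149). BIRC5, which encodes survivin, had 66.1 and 72.6 FPKM in shFAM49B, against 56.7 and 51.2 FPKM in shCON, and rose 1.29-fold (0.36, limma adjusted p = 0.0189). As TPM the log2 fold changes of CDCA8 and BIRC5 were 0.20 and 0.12, and neither passed. Among single libraries left out, CDCA8 did not pass without shFAM49B replicate 2 (limma adjusted p = 0.0557) or shCON replicate 1 (0.0724), nor BIRC5 without shFAM49B replicate 2 (limma adjusted p = 0.0965) or shCON replicate 2 (0.0778).

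**Figure D3:**
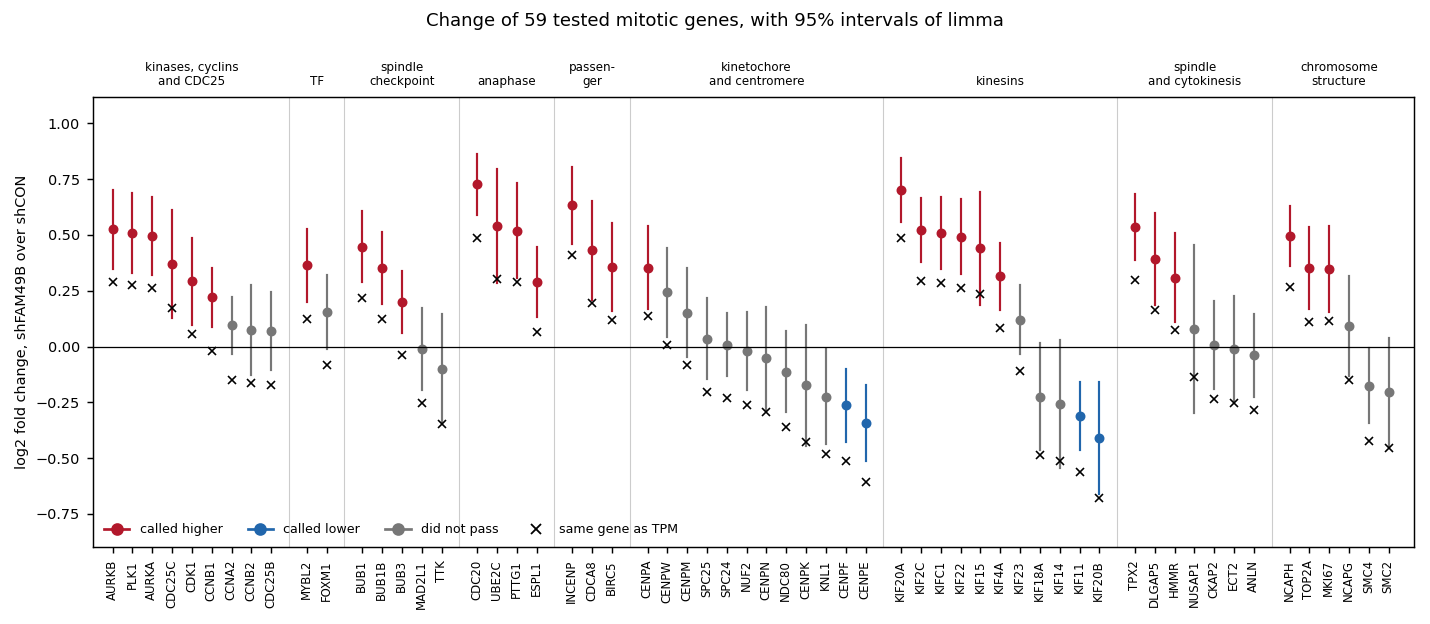
Log2 fold change (log2(FPKM + 1) scale, shFAM49B over shCON) of the 59 tested mitotic genes by role, with the 95% interval of limma (lines), coloured by call, and the value of the same gene as TPM (crosses). Anaphase and passenger genes lie above 0, most kinetochore genes straddle it, and kinesins lie on both sides of it, with 0.70 for KIF20A and -0.41 for KIF20B.

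Kinetochore and centromere genes differed from the roles above in their counts: of 12 tested, 1 rose, 2 fell and 9 did not pass (median log2 fold change -0.037, and -0.28 as TPM). As TPM 0 were higher and 5 lower. No test of the difference between roles was made. CENPA, the histone H3 variant that marks centromeres, was the rise, with 12.7 and 14.3 FPKM in shFAM49B, against 10.3 and 10.4 FPKM in shCON (1.31-fold, log2 fold change 0.35, SE 0.0737, limma adjusted p = 0.016). Its exons overlap those of SLC35F6 on the same strand, at 14.1 and 15.0 FPKM in shFAM49B, against 14.2 and 12.5 in shCON, so its level is uncertain. It did not pass as TPM (0.14, limma adjusted p = 0.166) or relative to recovered reads (0.15, limma adjusted p = 0.133), nor without shFAM49B replicate 2 (limma adjusted p = 0.0656), shCON replicate 1 (0.0779) or shCON replicate 2 (0.0677). CENPE, a kinesin motor that brings chromosomes to the spindle equator, measured 7.87 and 7.28 FPKM in shFAM49B, against 9.98 and 9.77 FPKM in shCON. Both shFAM49B values lay below both shCON values, a 1.30-fold lower level (log2 fold change -0.34, SE 0.0671, limma adjusted p = 0.0131). CENPF, a large protein of the outer kinetochore, measured 33.1 and 31.3 FPKM in shFAM49B, against 40.3 and 37.4 FPKM in shCON, 1.21-fold lower (log2 fold change -0.26, SE 0.0650, limma adjusted p = 0.0266). CENPE did not pass without shFAM49B replicate 2 (limma adjusted p = 0.0626), shCON replicate 1 (0.0784) or shCON replicate 2 (0.0628). CENPF did not pass without shFAM49B replicate 1 (limma adjusted p = 0.0625), shFAM49B replicate 2 (0.12) or shCON replicate 1 (0.116).

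Among the core genes of the outer kinetochore (NDC80, NUF2, SPC24, SPC25 and KNL1) 0 of 5 passed as deposited. NDC80, which encodes the microtubule-binding subunit, had 8.57 and 8.78 FPKM in shFAM49B, against 9.01 and 9.93 FPKM in shCON (-0.11, limma adjusted p = 0.253). NUF2, its partner, had 14.1 and 12.9 FPKM in shFAM49B, against 13.4 and 14.0 FPKM in shCON, and its groups overlapped. SPC24, which with SPC25 anchors that pair, had 13.9 and 13.8 FPKM in shFAM49B, against 13.9 and 13.6 FPKM in shCON (95% interval -0.13 to 0.15). SPC25 had 12.7 and 12.8 FPKM in shFAM49B, against 11.8 and 13.1 FPKM in shCON (95% interval -0.15 to 0.22), and both overlapped between the groups. SPC24 was called lower as TPM (-0.23) and relative to recovered reads (-0.20). KNL1, the scaffold that binds BUB1 and BUBR1, had 6.13 and 5.42 FPKM in shFAM49B, against 7.21 and 6.61 in shCON (-0.22, limma adjusted p = 0.0868), with groups that did not overlap. Of the inner kinetochore genes CENPK, CENPM, CENPN and CENPW, the smallest p was that of CENPW, at 26.3 and 24.0 FPKM in shFAM49B, against 22.1 and 19.999 in shCON (0.24, limma adjusted p = 0.0571). In CENPM and CENPK the groups did not overlap, with log2 fold changes of 0.15 and -0.17, and in CENPN, at -0.054, they did. CENPM had 23.0 and 23.9 FPKM in shFAM49B, against 19.7 and 22.4 FPKM in shCON. CENPN had 7.07 and 7.92 FPKM in shFAM49B, against 7.31 and 8.34 FPKM in shCON. CENPK, the lowest of these, had 5.61 and 4.48 FPKM in shFAM49B, against 5.94 and 5.64 FPKM in shCON.

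Kinesins, the motors of the spindle, rose and fell: KIF20A had the largest ratio of mean FPKM of the 59 members and KIF20B the largest fall in log2 fold change. Of 11, 6 rose, 2 fell and 3 did not pass, and as TPM 4 were higher and 4 lower. The shFAM49B libraries lay above the shCON libraries in 7 (43.1% of all tested genes) and below them in 4 (31.6% of all tested genes). KIF20A, a motor of the midzone and of cytokinesis, measured 24.4 and 25.5 FPKM in shFAM49B, against 15.0 and 14.9 FPKM in shCON, 1.67-fold higher (log2 fold change 0.70, SE 0.0570, limma adjusted p = 0.00188). It overlaps exons of CDC23 on the opposite strand, which had 23.8 and 23.7 FPKM in shFAM49B, against 19.8 and 20.001 in shCON, and was itself called higher. KIF2C, the microtubule depolymerase MCAK, measured 37.1 and 38.2 FPKM in shFAM49B, against 25.3 and 26.5 FPKM in shCON, and rose 1.45-fold (log2 fold change 0.52, SE 0.0572, limma adjusted p = 0.00308). KIFC1, a minus-end motor that clusters spindle poles, had 22.6 and 24.6 FPKM in shFAM49B, against 16.2 and 16.3 FPKM in shCON, 1.45-fold higher (log2 fold change 0.51, SE 0.0639, limma adjusted p = 0.00405). KIF22, a chromokinesin, had 34.8 and 37.5 FPKM in shFAM49B, against 24.6 and 26.2 FPKM in shCON, 1.42-fold higher (log2 fold change 0.49, SE 0.0671, limma adjusted p = 0.00485). These 4 kinesins were called higher in every setting. KIF15, which backs up KIF11 in keeping the spindle bipolar, had 11.5 and 9.53 FPKM in shFAM49B, against 7.75 and 7.16 FPKM in shCON, and rose 1.41-fold (0.44, limma adjusted p = 0.0209). The chromokinesin KIF4A had 23.7 and 25.1 FPKM in shFAM49B, against 19.4 and 19.5 FPKM in shCON, and rose 1.26-fold (0.31, limma adjusted p = 0.0117). Exons of KIF4A overlap those of PDZD11 on the opposite strand, which had 28.3 and 23.6 FPKM in shFAM49B, against 16.8 and 17.0 FPKM in shCON. As TPM neither KIF15 nor KIF4A passed. KIF15 lost its call without shFAM49B replicate 1 (limma adjusted p = 0.0647), shCON replicate 1 (0.0641) or shCON replicate 2 (0.0983), and KIF4A without shFAM49B replicate 2 (limma adjusted p = 0.06), shCON replicate 1 (0.0596) or shCON replicate 2 (0.0534).

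KIF11, the Eg5 motor that pushes spindle poles apart, measured 30.8 and 29.2 FPKM in shFAM49B, against 38.5 and 36.6 FPKM in shCON. The shFAM49B level was 1.25-fold lower (log2 fold change -0.31, SE 0.0603, limma adjusted p = 0.0126). It did not pass without shFAM49B replicate 2 (limma adjusted p = 0.0687) or shCON replicate 1 (0.0655). KIF20B, a relative of KIF20A that acts in cytokinesis, measured 9.40 and 7.75 FPKM in shFAM49B, against 12.1 and 11.3 FPKM in shCON, 1.36-fold lower (log2 fold change -0.41, SE 0.0993, limma adjusted p = 0.0249), and did not pass without shFAM49B replicate 2 (limma adjusted p = 0.0777), shCON replicate 1 (0.117) or shCON replicate 2 (0.0725). KIF20A and KIF20B thus had opposite signs, and KIF11 and its backup KIF15 did too, under each of the 5 scalings. KIF14, a motor of cytokinesis, did not pass, at 10.2 and 8.13 FPKM in shFAM49B, against 11.6 and 10.5 FPKM in shCON (-0.26, limma adjusted p = 0.125). KIF18A, which limits chromosome oscillation, did not pass either, at 5.94 and 4.996 FPKM in shFAM49B, against 6.78 and 6.30 FPKM in shCON (-0.22, limma adjusted p = 0.113). Both were called lower as TPM (-0.51 and -0.49). KIF23, a subunit of centralspindlin, had 10.1 and 10.5 FPKM in shFAM49B, against 9.29 and 9.50 in shCON, and did not pass (0.12, limma adjusted p = 0.165).

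Of 7 tested spindle assembly and cytokinesis genes, 3 rose and 4 did not pass, and as TPM 1 was higher and 1 lower. TPX2, which activates Aurora A on microtubules, measured 99.3 and 102 FPKM in shFAM49B, against 71.3 and 67.0 FPKM in shCON. It was 1.46-fold higher (log2 fold change 0.54, SE 0.0589, limma adjusted p = 0.00312) and called in every setting. DLGAP5, a spindle protein of kinetochore fibres, had 24.6 and 24.8 FPKM in shFAM49B, against 20.03 and 17.3 FPKM in shCON, and rose 1.33-fold (log2 fold change 0.39, SE 0.0817, limma adjusted p = 0.016). HMMR, which acts with TPX2 at spindle poles, had 37.4 and 33.5 FPKM in shFAM49B, against 29.5 and 27.2 FPKM in shCON, and rose 1.25-fold (log2 fold change 0.31, SE 0.0786, limma adjusted p = 0.029). The calls of DLGAP5 and HMMR were lost as TPM. DLGAP5 did not pass without shFAM49B replicate 1 (limma adjusted p = 0.0679), shFAM49B replicate 2 (0.0796) or shCON replicate 2 (0.0533), nor HMMR without shFAM49B replicate 1 (limma adjusted p = 0.111), shCON replicate 1 (0.0589) or shCON replicate 2 (0.122). In the other 4 the groups overlapped. ANLN, which encodes anillin of the contractile ring, had 20.6 and 19.0 FPKM in shFAM49B, against 21.3 and 19.6 FPKM in shCON (-0.040, limma adjusted p = 0.688, 95% interval -0.22 to 0.14). ECT2, the exchange factor that activates RhoA at the midzone, had 31.4 and 26.4 FPKM in shFAM49B, against 29.7 and 28.3 FPKM in shCON (95% interval -0.25 to 0.23). ANLN was called lower as TPM (-0.28). CKAP2, which binds microtubules, had 41.4 and 36.0 FPKM in shFAM49B, against 38.2 and 38.6 FPKM in shCON (95% interval -0.19 to 0.21). NUSAP1, which bundles them, was listed as the lowest tested member, at 4.17 and 2.88 FPKM in shFAM49B, against 3.24 and 3.25 FPKM in shCON (95% interval -0.30 to 0.45). Its exons overlap those of AC087721.2 on the same strand, listed at 0 in all 4 libraries, so the level of NUSAP1 is uncertain.

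PRC1, the midzone bundler, was listed at 0.661 and 0.689 FPKM in shFAM49B, against 0.397 and 0.470 FPKM in shCON, from 56 and 57 reads in shFAM49B and 37 and 48 in shCON. It fell under the filter and was not tested. Its exons overlap those of AC068831.7 on the same strand, at 1.92 and 1.56 FPKM in shFAM49B, against 1.19 and 1.13 in shCON, so the level of PRC1 is uncertain.

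Of 6 chromosome structure genes 3 rose and 3 did not pass, and as TPM 1 was higher and 2 lower. NCAPH, the kleisin of condensin I, measured 38.1 and 39.1 FPKM in shFAM49B, against 27.1 and 27.1 FPKM in shCON, 1.43-fold higher (log2 fold change 0.50, SE 0.0531, limma adjusted p = 0.00293), and was called in every setting. NCAPG, its partner in condensin I, had 36.7 and 32.0 FPKM in shFAM49B, against 33.7 and 30.6 in shCON, with overlapping groups (95% interval -0.13 to 0.32). SMC2 and SMC4 encode the ATPase pair of condensin, and neither passed. SMC2 had 21.2 and 17.8 FPKM in shFAM49B, against 23.5 and 21.7 FPKM in shCON (-0.21, limma adjusted p = 0.144). SMC4 had 43.3 and 39.3 FPKM in shFAM49B, against 46.9 and 46.5 FPKM in shCON (log2 fold change -0.18, SE 0.0664, limma adjusted p = 0.0862). Both shFAM49B values lay below both shCON values in each, and both genes were called lower as TPM (-0.45 and -0.42). TOP2A, the topoisomerase that untangles sister chromatids, had 130.2 and 116 FPKM in shFAM49B, against 97.2 and 95.1 FPKM in shCON, and rose 1.28-fold (0.35, limma adjusted p = 0.0159), with the sign turned after quantile normalization (-0.072). It did not pass without shFAM49B replicate 1 (limma adjusted p = 0.0661), shCON replicate 1 (0.0581) or shCON replicate 2 (0.0674). MKI67, which encodes the proliferation marker Ki-67, had 29.5 and 29.03 FPKM in shFAM49B, against 24.3 and 21.4 FPKM in shCON, and rose 1.28-fold (0.35, limma adjusted p = 0.0187). The call of MKI67 was lost under 3 of the 4 other scalings and without shFAM49B replicate 1 (limma adjusted p = 0.0806), shFAM49B replicate 2 (0.0798) or shCON replicate 2 (0.0669).

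Rises and falls among the members moved with the base composition of their transcripts. GC of the longest annotated transcript had a median of 48.0% in the 30 members called higher, 36.8% in the 4 called lower and 40.03% in the 25 that did not pass. Of 16 members with a GC of at least 50%, 12 rose and 0 fell, where 33.1% of all tested genes of that GC rose and 12.7% fell. Of 19 members under 40%, 4 rose and 3 fell, where 9.23% of all tested genes rose and 27.6% fell. Across the 59 members, Pearson's r between GC and log2 fold change was 0.62 (Spearman's rho 0.65), beside 0.13 (rho 0.19) across 13769 tested genes. These genes share the same 4 libraries and are not independent replicates. KIF11 (38.3%) and KIF20A (48.4%), like KIF20B (34.2%) and INCENP (59.6%), show the trend, whereas DLGAP5 (38.4%) rose at a low GC and CENPM (61.4%) did not pass at a high one.

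**Figure D4:**
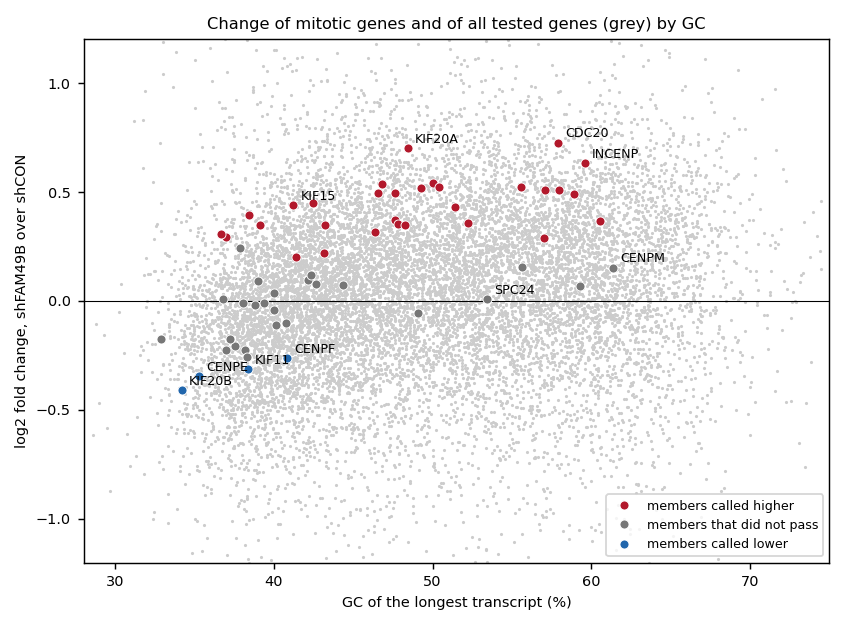
Log2 fold change (shFAM49B over shCON) against GC of the longest transcript (percent) for all tested genes (grey, with those beyond the axis limits not drawn) and for the 59 mitotic genes, coloured by call. The 4 members called lower lie between 34.2% and 40.8% GC, and members called higher lie between 36.7% and 60.5%.

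With the trend on GC removed in each library, 31 members were called higher and 2 lower (52.5% and 3.39%, beside 27.3% and 16.3% of all tested genes). CENPF and KIF11 still passed, with log2 fold changes of -0.20 and -0.19. CENPE was -0.15 (limma adjusted p = 0.0715) and KIF20B -0.19 (limma adjusted p = 0.065) and neither passed. CENPW was called higher (0.37, limma adjusted p = 0.00764). Level and length moved with the change as well: Pearson's r with log2 mean FPKM was 0.48 across the members and 0.25 across all tested genes, and with log2 gene length it was -0.42 and -0.060. Of the 9 members with a mean of at least 50 FPKM, 8 rose, where 73.9% of all tested genes at that level did. Of 29 members at 20 to 50 FPKM 15 rose (51.7%), where 48.6% of all tested genes did, and of 20 at 5 to 20 FPKM 7 rose (35.0%), where 29.6% did. Within a range of level, the share of members that rose was therefore closer to that of all tested genes than the 50.8% and 26.4% over all levels were.

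Other genes of the same machinery, 115 in 5 lists chosen by function, also held both rises and falls. Of 113 tested, 39 rose (34.5%, beside 26.4% of all tested genes), 11 fell (9.73%, beside 15.8%) and 63 did not pass. Their median log2 fold change was 0.078, close to the 0.055 over all tested genes. As TPM it was -0.15, close to the -0.17 over all tested genes. On that scale 19 were higher and 37 lower, where 11.6% and 31.7% of all tested genes were. The rule names the 2 genes of smallest p in each list, and these were all rises, so the 11 falls are named too, chosen after their values were seen. Of 15 tested kinases and regulators 6 rose and 3 fell. CDC25A, the CDC25 phosphatase that also acts at S-phase entry, measured 46.9 and 49.8 FPKM in shFAM49B, against 31.5 and 28.9 FPKM in shCON (1.60-fold higher, limma adjusted p = 0.00272). LIN52, a subunit of the DREAM core, had 11.7 and 12.4 FPKM in shFAM49B, against 8.80 and 7.997 in shCON (1.43-fold higher, limma adjusted p = 0.00698). LIN54, the DNA-binding subunit of the same core, fell, with 6.09 and 5.49 FPKM in shFAM49B, against 8.20 and 7.73 FPKM in shCON (log2 fold change -0.40, SE 0.0767, limma adjusted p = 0.0123), a call lost without shFAM49B replicate 2 (limma adjusted p = 0.0596) or shCON replicate 1 (0.079). LIN9, another subunit, did not pass (-0.12, limma adjusted p = 0.271). The other falls of this list were ARPP19 (-0.27, limma adjusted p = 0.0261) and PBK (-0.23, limma adjusted p = 0.0499). ARPP19 did not pass without shFAM49B replicate 2 (limma adjusted p = 0.102), shCON replicate 1 (0.107) or shCON replicate 2 (0.0951), and PBK did not pass with any of the 4 left out (limma adjusted p = 0.0584 to 0.196). Of 27 other kinetochore and centromere genes 7 rose and 2 fell. HJURP, the chaperone that loads CENPA, had 20.6 and 20.5 FPKM in shFAM49B, against 12.5 and 13.0 in shCON (1.61-fold higher, limma adjusted p = 0.00216). PMF1 of the MIS12 complex had 11.1 and 10.2 FPKM in shFAM49B, against 6.42 and 5.77 in shCON (1.74-fold higher, limma adjusted p = 0.00317). The 2 falls were SKA3 (-0.34, limma adjusted p = 0.00902), which did not pass without shCON replicate 2 (limma adjusted p = 0.0542), and CENPQ. CENPQ, of the inner kinetochore, had 5.91 and 4.13 FPKM in shFAM49B, against 10.1 and 11.02 FPKM in shCON, 2.10-fold lower (log2 fold change -0.95, SE 0.150, limma adjusted p = 0.00715).

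Of 20 other checkpoint and anaphase-promoting complex genes 6 rose and 2 fell. UBE2S, which extends the ubiquitin chains that UBE2C begins, measured 208 and 221 FPKM in shFAM49B, against 124 and 129.6 FPKM in shCON (1.69-fold higher, limma adjusted p = 0.00187). ANAPC5, a scaffold subunit of the complex, had 22.2 and 23.7 FPKM in shFAM49B, against 15.1 and 15.5 in shCON (1.498-fold higher, limma adjusted p = 0.00316). ANAPC13, a small subunit of the same complex, fell, with 13.3 and 12.5 FPKM in shFAM49B, against 17.8 and 18.6 FPKM in shCON (log2 fold change -0.47, SE 0.0630, limma adjusted p = 0.00471), in each of the 16 settings in which it was tested. ANAPC16, another subunit, fell as well (-0.22, limma adjusted p = 0.0314), but did not pass with any of the 4 libraries left out (limma adjusted p = 0.0838 to 0.139). Of 17 cohesin and other condensin genes 6 rose and 3 fell. NCAPD2, a subunit of condensin I, had 71.9 and 76.1 FPKM in shFAM49B, against 46.0 and 43.8 FPKM in shCON (1.65-fold higher, limma adjusted p = 0.00201). NCAPD3, of condensin II, had 26.9 and 27.6 FPKM in shFAM49B, against 19.6 and 19.2 in shCON (1.41-fold higher, limma adjusted p = 0.0034). The falls were of cohesin regulators: WAPL, which releases cohesin (-0.27, limma adjusted p = 0.0186), its partner PDS5A (-0.33, limma adjusted p = 0.015) and the acetyltransferase gene ESCO2 (-0.46, limma adjusted p = 0.0368). WAPL did not pass with any of the 4 libraries left out (limma adjusted p = 0.0521 to 0.0968). PDS5A did not pass without shFAM49B replicate 2 (limma adjusted p = 0.0747) or shCON replicate 1 (0.0847), nor ESCO2 without shFAM49B replicate 2 (limma adjusted p = 0.0941), shCON replicate 1 (0.123) or shCON replicate 2 (0.142). Of 34 tested spindle, centrosome and cytokinesis genes 14 rose and 1 fell. SPAG5, which encodes the spindle protein astrin, had 18.6 and 21.1 FPKM in shFAM49B, against 11.7 and 11.9 in shCON (1.68-fold higher, limma adjusted p = 0.003). HAUS4, of the augmin complex, had 8.17 and 7.90 FPKM in shFAM49B, against 5.16 and 4.96 in shCON (1.59-fold higher, limma adjusted p = 0.00328). HAUS3, of the same complex, was the fall (-0.42, limma adjusted p = 0.00916), and did not pass without shCON replicate 1 (limma adjusted p = 0.0658) or shCON replicate 2 (0.0543). The 10 genes of smallest p, 2 in each list, were called higher as TPM as well.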

How the data were processed

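RNA libraries of 2 shFAM49B and 2 shCON samples were prepared with NEBNext Ultra reagents, per the protocols in the labels. The deposited table gives FPKM per gene with gene length and coordinates, per the file headers. No aligner or counter is named in the labels or headers. GRCm38 and mm10, which are mouse builds, stand in the submitters' processing notes, but all 58735 identifiers in the table are human and in GENCODE release 29, and 58724 share its start and end, so coordinates are on GRCh38. FPKM times length was a whole multiple of 1 step for 100% of values above 0 (tolerance 0.001 of a step), which gave back the reads. The denominators, worked out from these values, were those of median ratio scaling over 20791 genes, those with a read in each library. At this depth 3 reads in 1 kb equal 0.162 to 0.200 FPKM, which limits precision for low genes.

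Deposited FPKM values were tested with limma 3.58.1 (R 4.3.3) on log2(FPKM + 1), with a mean-variance trend, on the 13775 genes whose mean reached 1 FPKM. Tests were 2-sided, with Benjamini-Hochberg adjustment over all tested genes at 0.05. Of the degrees of freedom, 2 were residual and 3.32 prior. The script was run on simulated reads, which checks the code and not the scaling or the calls of these data. GC came from GENCODE transcripts, and 2 alternatives that remove its trend or that of length were chosen after the data were seen, beside 14 others. Promoter sequences are RefSeq's (GRCh38.p14). The members and lists were chosen with earlier results of these data known. In each role the members of smallest p, up to 4, and each member called lower are described in full, and the others by level or interval.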

Additional observations from a re-analysis of the deposited data

How the results depend on the processing

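The counts of calls moved with the scaling, the filter and the libraries used. The members called higher numbered 30 in the main test, 12 as TPM and 13 relative to recovered reads. They numbered 17 after quantile normalization and 17 (28.3%) without a filter on low values. Over all tested genes the shares called higher were 26.4%, 11.6%, 12.5%, 19.2% and 6.67%, in the same order. The members called lower numbered 4 in the main test, 12 as TPM, 12 relative to recovered reads and 9 with voom on recovered reads. They numbered 2 without a filter and 2 with the GC trend removed. The shares of all tested genes called lower were 15.8%, 31.7%, 30.3%, 20.3%, 4.21% and 16.3%, in that order. The median of the members turned negative as TPM (-0.021) and relative to recovered reads (-0.0020), and was 0.15 after median ratios over tested genes, 0.044 after quantile normalization and 0.24 with the GC trend removed. Leaving out each library in turn gave 16 to 20 members higher, 0 to 4 lower and a median of 0.20 to 0.24.

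Other mitotic genes called higher numbered 39 in the main test, 25 without a filter, 19 as TPM, 19 relative to recovered reads and 24 after quantile normalization, and 23 to 26 with a library left out. Those called lower numbered 11 in the main test, 6 without a filter, 37 as TPM, 34 relative to recovered reads, 21 after median ratios, 26 after quantile normalization and 20 with voom, and 3 to 13 with a library left out. Over all tested genes, 3642 were higher and 2170 lower in the main test (26.4% and 15.8%). Without a filter 32758 genes were tested, and 2185 and 1378 were called (6.67% and 4.21%). With a filter at 5 FPKM 7756 were tested, and 3187 were higher and 1322 lower (41.1% and 17.0%). Of 13775 genes the counts were 1597 and 4362 as TPM (11.6% and 31.7%), and 1722 and 4173 relative to recovered reads (12.5% and 30.3%). They were 2926 and 2647 after median ratios (21.2% and 19.2%), and 2647 and 2446 after quantile normalization (19.2% and 17.8%). With a library left out they were 1897 to 2495 higher and 1027 to 1529 lower.

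Of all calls 62.7% were higher as deposited, 52.5% after median ratios, 52.0% after quantile normalization, 26.8% as TPM and 29.2% relative to recovered reads. Turned signs are listed here for members called in the main test or under the other scaling. As TPM and relative to recovered reads these were CCNB1 (-0.021 and -0.0020), BUB3 (-0.036 and -0.016) and SPC24 (-0.23 and -0.20). After quantile normalization they were CCNA2 (-0.18), CCNB1 (-0.13), MYBL2 (-0.12) and TOP2A (-0.072). Members called in neither turned sign as well, FOXM1 (-0.082 as TPM) and CCNB2 (-0.17 as TPM) among them. The cause of these changes was not tested beyond the scaling itself. With a pseudocount of 0.1 FPKM, or with the trend on length removed, all 59 members kept the side of the threshold they had in the main test. The replicate numbers did not pair the libraries (correlation of deviations -0.0132), and with the replicate block 30 members were higher and 4 lower, BUB3 was lost (limma adjusted p = 0.0564), as was ANAPC16 (limma adjusted p = 0.0527), and CENPW passed (limma adjusted p = 0.0345). With 2 libraries in a group, a fit that leaves 1 out assumes that the lone library varies like the other group.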
